A study of Homo sapiens with 24 samples.

Results

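The zinc finger genes of chromosome 19 described here are the protein-coding genes of that chromosome whose GENCODE v29 symbol is ZNF followed only by digits. By this rule, matched to the Ensembl identifiers of the count tables, 240 of 57500 genes were members. GENCODE v29 gives the same kind of symbol to 234 protein-coding genes of other chromosomes and holds 1223 other protein-coding genes on chromosome 19, and both served as comparison groups.

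The study counted polyadenylated RNA in spheroids of FaDu and SAS, established cell lines of human head and neck squamous cell carcinoma. Spheroids grew for 4 days to a diameter of about 400 µm and were then kept at 37 °C without treatment (control), irradiated (RT; a dose of 7 Gy in FaDu, of 10 Gy in SAS), heated to 42.5 °C for 60 min (HT), or heated and irradiated (HT + RT). RNA was taken 0.5 h after treatment. Each of the 8 groups had 3 libraries, 24 in all, so a comparison of FaDu with SAS after RT or HT + RT also compared the doses.

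Most genes of this family encode proteins that pair a KRAB domain with an array of C2H2 zinc fingers. The fingers bind particular DNA sequences, many of them in transposable elements, and the KRAB domain recruits TRIM28, which brings the histone methyltransferase SETDB1, heterochromatin proteins and histone deacetylases. The genes arose by tandem duplication, lie in clusters of close relatives on chromosome 19 and are themselves targets of heterochromatin at their 3' ends, where ZNF274 binds. Silencing of single family members by promoter methylation has been described in tumours.

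The libraries held 15203484 to 29452514 counts, and 3 counts corresponded to 0.0980 to 0.200 CPM (counts scaled by library size) in a library. CPM values below were scaled by the trimmed mean of M-values (TMM) over all libraries, and a count of 0 in the 3 libraries of a group was read against a floor of 3 counts over the group, which is 0.0480 CPM in FaDu controls and 0.0567 CPM in SAS controls. Bounds and ratios for such genes use the counts summed over the libraries of a group, so they differ a little from ratios of mean CPM. Such floors and intervals cover counting error only, and p-values measure only the spread between libraries. Which strand was counted is not stated, and 77 members overlap another gene on their own strand, 76 overlap a gene on the opposite strand and 108 overlap none, so values of overlapping members may include reads of the other gene. In a separate tally, which includes overlapping members, 24 of the 240 share at least 20 percent of their 75-base words with another gene, which affects reads that match both places.

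Both lines carried the epithelial markers listed for their label, and some markers of other lists were read too. All 10 epithelial markers of the list reached 1 CPM in both lines. Their summed level was 11262 to 14229 CPM in FaDu libraries, where KRT17 was the most abundant. In SAS libraries it was 6967 to 8237 CPM, and KRT18 was the most abundant. Of 6 fibroblast markers only COL1A1 reached 1 CPM, and the list summed to 34.3 to 65.8 CPM in FaDu and to 1.65 to 31.1 CPM in SAS, where COL1A1 was higher in the heated groups, from 1.20, 0.969 and 1.83 CPM in controls to 30.5, 16.3 and 24 CPM after HT. Of 5 leukocyte markers only CD14 reached 1 CPM (4.37 to 9.57 CPM for the list over all libraries). The endothelial list of 4 summed to 6.17 to 8.71 CPM in FaDu and 9.54 to 23.6 CPM in SAS, with CDH5 the most abundant in both. All 6 heat shock genes fixed as a check of the heat labels were higher in each of the 4 comparisons of heated with unheated groups, with median log2 fold changes of 4.88 and 5.03 in FaDu and 4.40 and 4.54 in SAS.

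Some libraries stood apart. In every FaDu group replicate 1 differed from replicates 2 and 3: the chi-square per gene between library pairs was 15.1 to 22 for pairs with replicate 1 and 3.51 to 5.09 for replicates 2 and 3, against 4.61 to 11.8 for all pairs of SAS replicates. In FaDu HT replicate 1 and FaDu RT replicate 3, members without counts elsewhere had a few: the 41 members near silent in all groups (a median of 0 counts and fewer than 15 in any library) drew 50 counts on 29 of them and 35 counts on 20 of them, whereas every other library had 1 to 12 counts on these members. Because of this background of single counts, a member is called read in a library here only from 10 counts upward.

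All 240 members can be placed by their counts. None of 4 had a count in any library, and 45, these 4 included, stayed under 10 counts in every library. At the other end, 125 members had at least 10 counts in all 24 libraries. In FaDu, 172 members reached 10 counts in all 12 libraries, and in SAS 132 did. Members that were read in every FaDu library but in no SAS library numbered 25, and those read in every SAS library but in no FaDu library numbered 5; among all other genes these counts were 674 and 310.

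The summed CPM of the 240 members was 2092, 2082 and 2197 in the 3 FaDu control libraries and 1122, 1160 and 1167 in the 3 SAS control libraries. Every FaDu library was above every SAS library. After HT the FaDu libraries summed to 1828, 1866 and 1896 CPM, all below the FaDu controls, while the SAS libraries summed to 1159, 1164 and 1125 CPM, which overlapped their controls. The group means ± standard deviation (SD, n = 3) were 2124 ± 63.3 for FaDu control, 1986 ± 24.9 for RT, 1864 ± 34.1 for HT and 1903 ± 88.6 for HT + RT. In SAS they were 1150 ± 24, 1072 ± 25.8, 1150 ± 21.3 and 1153 ± 43.4 in the same order. RT libraries lay below controls in both lines, HT libraries below controls in FaDu only, and SAS HT + RT libraries above SAS RT libraries. FaDu HT + RT libraries (1802 to 1966 CPM) overlapped FaDu RT libraries (1961 to 2011 CPM). RT and HT were set against the same control libraries, so these falls are not independent. With scaling by library size only, the means were 2317 for FaDu control and 1953 for HT, without overlap, while FaDu RT libraries overlapped the controls. For SAS the same scaling gave 1094 for control and 1058 for HT, with overlapping libraries (1051 to 1118 and 1017 to 1085 CPM), and 1020 for RT and 1068 for HT + RT, which then overlapped as well. Bulk RNA cannot tell fewer cells that express a gene from less RNA per cell.

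**Figure D1:**
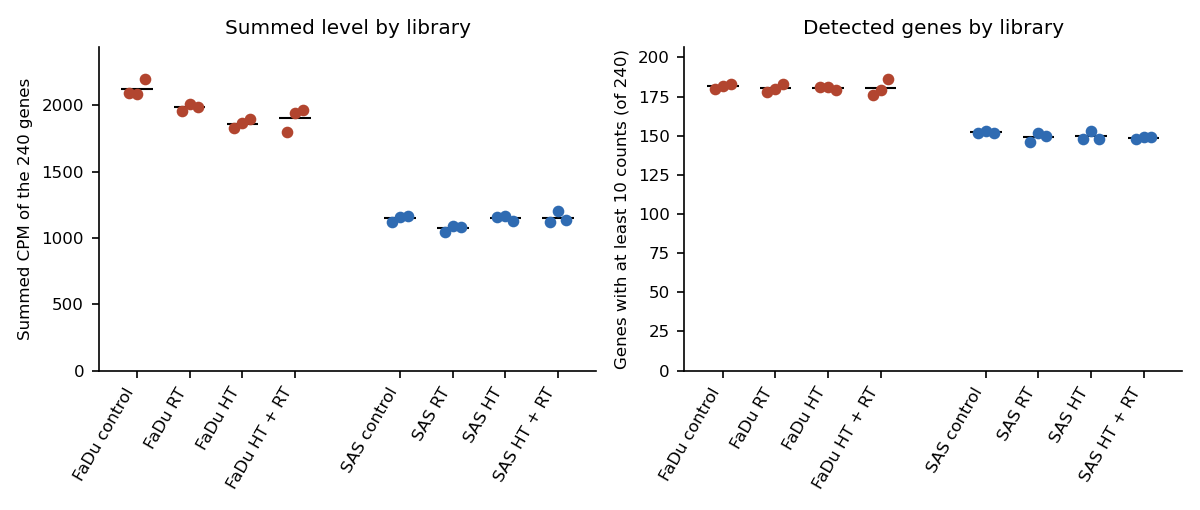
Left, CPM summed over the 240 members in each library; right, number of members with at least 10 counts in each library. Points are libraries (FaDu red, SAS blue) and bars are group means; FaDu libraries read 176 to 186 members and SAS libraries 146 to 153.

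Levels differed widely between members. Per kilobase of exon, the median member stood at 0.955 CPM in FaDu controls and 0.339 CPM in SAS controls, where all protein-coding genes had medians of 1.44 and 1.27. ZNF146, a finger array without a KRAB domain, was the highest member in both lines, with 60.3 and 21.2 CPM per kb, and held 11.8% of all member CPM in FaDu and 7.65% in SAS. In FaDu it was followed by ZNF114, ZNF787, ZNF317 and ZNF581, which stood at 20.4, 12.2, 10.1 and 8.93 CPM per kb. The same 4 genes came next in SAS, in the order ZNF581, ZNF114, ZNF787 and ZNF317, at 11.4, 11.0, 11.0 and 7.10 CPM per kb. ZNF581 shares 15.7 percent of its words with ZNF580, which it overlaps, so its level is uncertain. Only 27 members in FaDu and 23 in SAS made up 50 percent of the member CPM.

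The first question was how the lines differed without treatment. In FaDu against SAS controls, 187 members passed the low-count filter, many of them because of the line in which they were high, and edgeR called a gene altered at an adjusted p under 0.05 (over all 15810 genes tested) and an absolute log2 fold change over 1. Of the tested members 86 were higher in FaDu and 11 lower, where 21.2% and 16.9% of all genes were. At an adjusted p under 0.05 alone the counts were 139 and 18, beside 38.6% and 36.4% of all genes. Libraries did not overlap for 141 higher and 17 lower members, beside 38.9% of all genes in each direction. The median log2 fold change of the tested members was 0.93 (quartiles 0.38 and 1.92) against 0.03 over all genes; 21 members had a group without counts, and with these at their lower bounds the median was the same.

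Comparison groups moved less. Of 211 tested ZNF genes of other chromosomes, 53 were altered higher and 16 lower in FaDu, with a median log2 fold change of 0.32. Of 763 other protein-coding genes of chromosome 19, 174 were higher and 88 lower, with a median of 0.13. Scaling by library size only raised the all-gene median to 0.20 and the member median to 1.10, and DESeq2 gave 0.16 and 0.92; relative to all genes the members stood higher in FaDu under each.

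**Figure D2:**
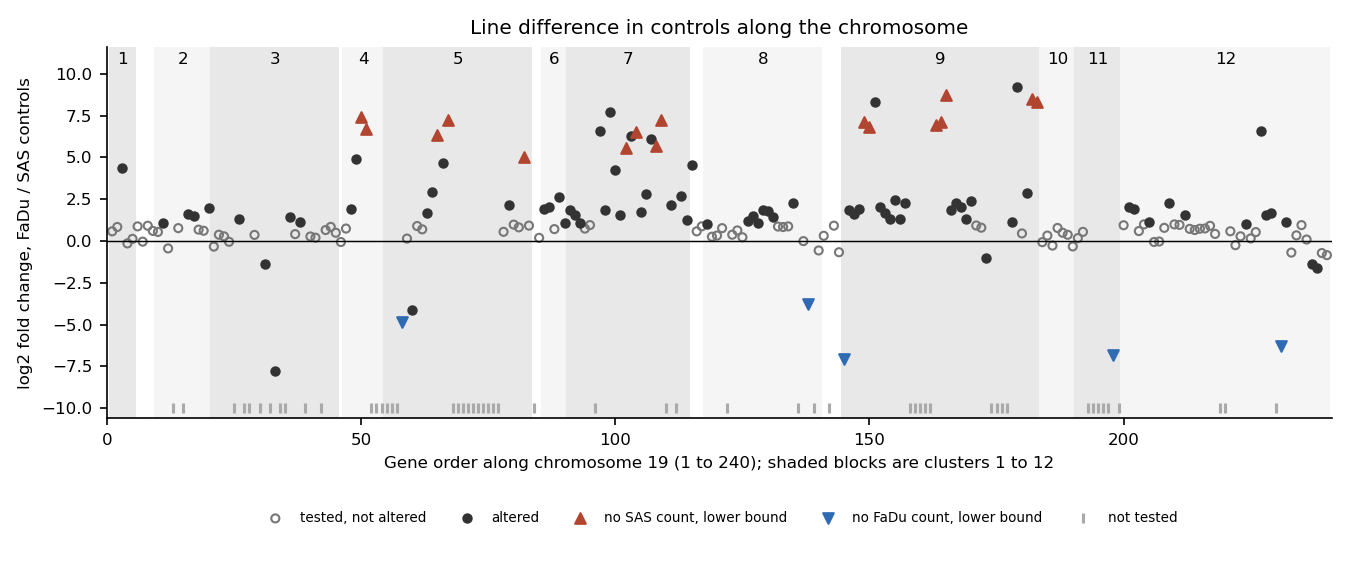
Log2 fold change of FaDu over SAS controls for the members in their order along chromosome 19 (1 to 240), with the 12 clusters shaded. Filled dots were altered, triangles are lower bounds where 1 line had no count, and ticks mark members that were not tested; long stretches of clusters 7 and 9 lie above 0.

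The largest differences were between reading and silence. ZNF83 (ENSG00000167766, chr19:52594060-52690496, minus strand, GRCh38) had 19.5, 22.5 and 28.1 CPM in the FaDu controls and no count in the SAS controls. It was read in every FaDu library, and in SAS it had 1 count after HT and 2 after HT + RT. The difference was at least 418-fold (edgeR adjusted p 3.6e-08), higher in 3 of 3 libraries.

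ZNF331 (ENSG00000130844, chr19:53519527-53580269, plus strand), an imprinted gene reported as silenced by methylation in several tumours, had 17.5, 18.9 and 18.7 CPM in FaDu controls and no count in SAS controls. Of all 12 SAS libraries 1 held a single count. The controls differed at least 324-fold (edgeR adjusted p 1.3e-08). Its neighbour ZNF813 had 17.6, 20.7 and 22 CPM in FaDu controls against no count in SAS controls, a difference of at least 357-fold (edgeR adjusted p 2e-08), and overlaps a non-coding gene on its strand.

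ZNF253 in cluster 4 had 7.71, 11.4 and 9.69 CPM in FaDu controls and no count in any SAS library, at least 170-fold (edgeR adjusted p 2.7e-07). ZNF43 in cluster 5 had 7.56, 8.10 and 9.73 CPM in FaDu controls and likewise none in SAS, at least 151-fold (edgeR adjusted p 1.7e-07). ZNF793 in cluster 7 had 9.13, 7.69 and 8.60 CPM in FaDu controls and none in SAS controls, at least 149-fold (edgeR adjusted p 1.3e-07). In each of these genes the FaDu libraries lay close together and SAS libraries were at 0, apart from 1 count of ZNF793 after HT.

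Silent and read genes stood side by side in cluster 9. ZNF350, also named ZBRK1 for its binding to BRCA1, had 6.56, 7.13 and 9.10 CPM in FaDu controls and no count in the 12 SAS libraries, at least 136-fold (edgeR adjusted p 3.1e-07). Next to it ZNF615 had 6.09, 6.47 and 6.75 CPM and again none in SAS, at least 114-fold (edgeR adjusted p 2.2e-07). ZNF614 had 19.6, 18.9 and 19.97 CPM in FaDu controls and 0, 0.114 and 0.0589 CPM in SAS controls, where 3 counts were made; its ratio was 344 with a counting interval of 118 to 1672 (edgeR adjusted p 2.1e-09). The next gene on the same strand, ZNF432, was read in both lines, with 8.87, 7.74 and 7.47 CPM in FaDu controls and 1.74, 2.17 and 2.18 CPM in SAS controls (edgeR log2 fold change 2.01 ± 0.18 SE, adjusted p 2.2e-06). On the other side of ZNF350, ZNF613 was read in both lines too, with 6.66, 5.86 and 5.41 CPM in FaDu controls and 1.79, 1.60 and 1.53 CPM in SAS controls. The silent stretch in SAS thus held 3 genes, between ZNF613 and ZNF432, and the exons of ZNF432 overlap those of ZNF841.

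A second stretch of cluster 9 that was read in FaDu and silent in SAS held ZNF808, ZNF701 and ZNF83. The members just before ZNF808, namely ZNF610, ZNF880, ZNF528, ZNF534 and ZNF578, also had no count in SAS after RT or HT + RT. Of these, ZNF880, ZNF528, ZNF534 and ZNF578 were near silent in FaDu too. ZNF808, a gene with a role in pancreas development, had 6.51, 6.16 and 8.31 CPM in FaDu controls and no count in any SAS library, at least 125-fold (edgeR adjusted p 3.3e-07). ZNF701 had 7.45, 8.25 and 8.14 CPM in FaDu controls and no count in any SAS library, at least 140-fold (edgeR adjusted p 1.3e-07). Both were read in FaDu only, but they overlap on 1 strand and share 16.5 and 16.7 percent of their words, so reads may have moved between them.

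Promoter windows (250 bases before to 50 after the start; RefSeq, GRCh38.p14) were found for 209 members. The windows of 7 members of cluster 9 are printed, 5' to 3' on the gene's strand. ZNF350, ZNF615, ZNF614 and ZNF432 follow each other and only the last was read in SAS, and ZNF808, ZNF701 and ZNF83 are the second stretch; the members between, among them ZNF841, ZNF616, ZNF836, ZNF766 and ZNF480, are not shown. Capitals mark each CG, the dinucleotide that DNA methylation acts on. ZNF350 spans chr19:51986791-51987090 (minus), ZNF615 chr19:52008162-52008461 (minus), ZNF614 chr19:52028330-52028629 (minus), ZNF432 chr19:52048789-52049088 (minus), ZNF808 chr19:52527418-52527717 (plus), ZNF701 chr19:52570037-52570336 (plus) and ZNF83 chr19:52690447-52690746 (minus). For ZNF614, ZNF432 and ZNF701 the RefSeq start lies inside the GENCODE gene.
ZNF350: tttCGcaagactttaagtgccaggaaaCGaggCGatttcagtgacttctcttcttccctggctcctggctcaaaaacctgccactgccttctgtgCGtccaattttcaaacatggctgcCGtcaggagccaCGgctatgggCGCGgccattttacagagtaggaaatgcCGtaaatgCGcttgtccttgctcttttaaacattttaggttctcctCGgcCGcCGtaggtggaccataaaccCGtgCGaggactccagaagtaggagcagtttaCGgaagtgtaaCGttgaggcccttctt
ZNF615: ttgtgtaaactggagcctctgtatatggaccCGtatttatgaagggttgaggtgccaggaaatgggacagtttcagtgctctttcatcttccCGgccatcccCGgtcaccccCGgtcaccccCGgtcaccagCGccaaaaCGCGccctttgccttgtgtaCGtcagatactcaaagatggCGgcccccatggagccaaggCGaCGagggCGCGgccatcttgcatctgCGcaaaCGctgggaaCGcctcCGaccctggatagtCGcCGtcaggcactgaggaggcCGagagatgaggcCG
ZNF614: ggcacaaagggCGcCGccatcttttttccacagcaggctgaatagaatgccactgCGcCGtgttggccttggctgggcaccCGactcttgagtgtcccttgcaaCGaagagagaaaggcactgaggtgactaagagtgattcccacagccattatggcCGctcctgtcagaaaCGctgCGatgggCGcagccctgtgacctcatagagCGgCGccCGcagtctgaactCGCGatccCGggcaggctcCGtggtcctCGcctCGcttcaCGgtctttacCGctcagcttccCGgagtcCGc
ZNF432: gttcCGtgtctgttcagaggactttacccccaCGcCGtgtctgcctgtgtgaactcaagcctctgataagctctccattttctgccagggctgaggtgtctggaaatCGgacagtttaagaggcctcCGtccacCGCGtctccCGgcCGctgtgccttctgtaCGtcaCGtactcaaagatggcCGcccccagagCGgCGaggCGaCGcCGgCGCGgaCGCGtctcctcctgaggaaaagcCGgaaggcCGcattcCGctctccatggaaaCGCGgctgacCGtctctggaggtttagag
ZNF808: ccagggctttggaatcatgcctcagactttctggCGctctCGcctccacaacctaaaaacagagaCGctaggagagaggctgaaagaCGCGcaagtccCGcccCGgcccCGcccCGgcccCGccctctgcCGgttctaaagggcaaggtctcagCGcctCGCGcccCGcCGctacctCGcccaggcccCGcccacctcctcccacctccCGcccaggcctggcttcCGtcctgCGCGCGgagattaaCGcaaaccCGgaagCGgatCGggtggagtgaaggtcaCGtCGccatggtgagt
ZNF701: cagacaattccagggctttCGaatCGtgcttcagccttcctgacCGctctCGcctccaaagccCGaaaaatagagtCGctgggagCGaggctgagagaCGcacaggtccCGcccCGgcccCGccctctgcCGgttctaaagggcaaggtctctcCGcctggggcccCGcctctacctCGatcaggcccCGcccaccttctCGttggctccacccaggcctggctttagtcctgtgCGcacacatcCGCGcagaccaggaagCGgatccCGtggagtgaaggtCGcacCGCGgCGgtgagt
ZNF83: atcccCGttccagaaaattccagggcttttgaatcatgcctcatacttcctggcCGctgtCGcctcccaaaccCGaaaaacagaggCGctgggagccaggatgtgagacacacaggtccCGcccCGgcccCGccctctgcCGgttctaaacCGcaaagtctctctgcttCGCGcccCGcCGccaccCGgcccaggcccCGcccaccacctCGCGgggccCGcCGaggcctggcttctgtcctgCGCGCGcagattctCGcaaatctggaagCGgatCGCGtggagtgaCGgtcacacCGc

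These windows held 17, 22, 23, 27, 29, 26 and 29 CG in the order printed, and ZNF432 is the only gene among them that SAS read. A window of all 27305 promoters had a median of 14 CG and the 209 matched members a median of 20. The 23 matched members read only in FaDu had a median of 22, the 113 matched members read in all libraries 21, and the 32 matched near-silent members 16.5. By position, clusters 4 and 5 had the lowest medians, 10 each, and clusters 10 and 11 the highest, 29 and 29.5. Cluster 9 had a median of 25 and cluster 7 of 23. Counts of CG describe sequence, and methylation was not measured.

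Short motifs were unevenly spread over the clusters. The letters CCGGAAGT, an ETS factor motif searched on both strands, were in 4.44% of all promoters and in 40 of 209 member windows (19.1%), 21 of them among the 38 matched members of cluster 12 (55.3%). CCAAT, searched on both strands, was in 35.7% of all promoters, in 52.6% of member windows and in all matched members of clusters 1 (5), 4 (6) and 5 (23), in 22 of 24 of cluster 3 and in 3 of 22 of cluster 7. TGACGTCA, the cyclic AMP response element, reads the same on both strands; it was in 1.98% of all promoters and in 7 member windows, of which 5 lay among the 10 of cluster 2. TATAAA, on both strands, was in 12% of all promoters and in 1.91% of member windows. A match is a description of letters in this window and says nothing about binding.

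Of the 86 members altered higher in FaDu controls, 62 lay in runs of consecutive tested members. Members follow each other in 12 clusters of at least 5 genes with gaps of at most 300 kb, which hold 226 of the 240, numbered from the short arm's end. Going along the order of tested members, 10 runs of at least 3 consecutive members were altered in the same direction between controls, all 10 toward FaDu, and together they held 62 members. Not all runs were compact. The run from ZNF30 to ZNF566 spanned 1563 kb with 63 other protein-coding genes inside. The run from ZNF607 to ZNF546 spanned 2325 kb with 65 inside, and the remaining runs had at most 4 inside. No run was lower in FaDu. With 86 of 187 tested members higher, some runs arise without any grouping along the chromosome. How many would arise in this way was not tested.

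The longest run was 13 members of cluster 7 over 912 kb: ZNF461, ZNF567, ZNF850, ZNF790, ZNF345, ZNF829, ZNF568, ZNF420, ZNF383, ZNF527, ZNF569, ZNF570 and ZNF793. Of these, 4 had no count in SAS controls, and the smallest log2 fold change of the run was 1.57. ZNF420, known as a partner of p53, had 4.62, 5.45 and 5.49 CPM in FaDu controls and none in any SAS library, at least 91.9-fold (edgeR adjusted p 4.9e-07). ZNF568 had 1.94, 1.53 and 2.39 CPM in FaDu controls and 1 count in SAS controls, a ratio of 105 with a counting interval of 18.5 to 4176 (edgeR adjusted p 4.4e-06). These levels were low in FaDu too, and no library of either line overlapped the other.

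Cluster 7 as a whole had 19 of 21 tested members altered higher in FaDu controls and none lower, beside 21.2% and 16.9% of all genes, a median log2 fold change of 2.68, and 8 members read only in FaDu. Its summed CPM was 356 ± 14.3 in FaDu and 113 ± 3.27 in SAS controls, of which ZNF146 alone made up 250 ± 5.81 and 88.0 ± 2.24; without it the sums were 106 ± 9.37 and 25.1 ± 1.06 CPM. Inside it 6 other protein-coding genes were tested, all 6 higher in FaDu; they are named here after a look at their values. Among them ZFP82 stood at 8.26 ± 0.653 CPM in FaDu and 0.0196 ± 0.0340 CPM in SAS controls, and ZFP14 at 13.3 ± 1.89 and 0.497 ± 0.247 CPM (edgeR log2 fold change 4.77, adjusted p 6e-08). All 6 (ZFP14, ZFP82, ZNF585A, ZNF585B, HKR1 and ZFP30) are zinc finger genes whose symbols are not ZNF and digits alone.

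**Figure D3:**
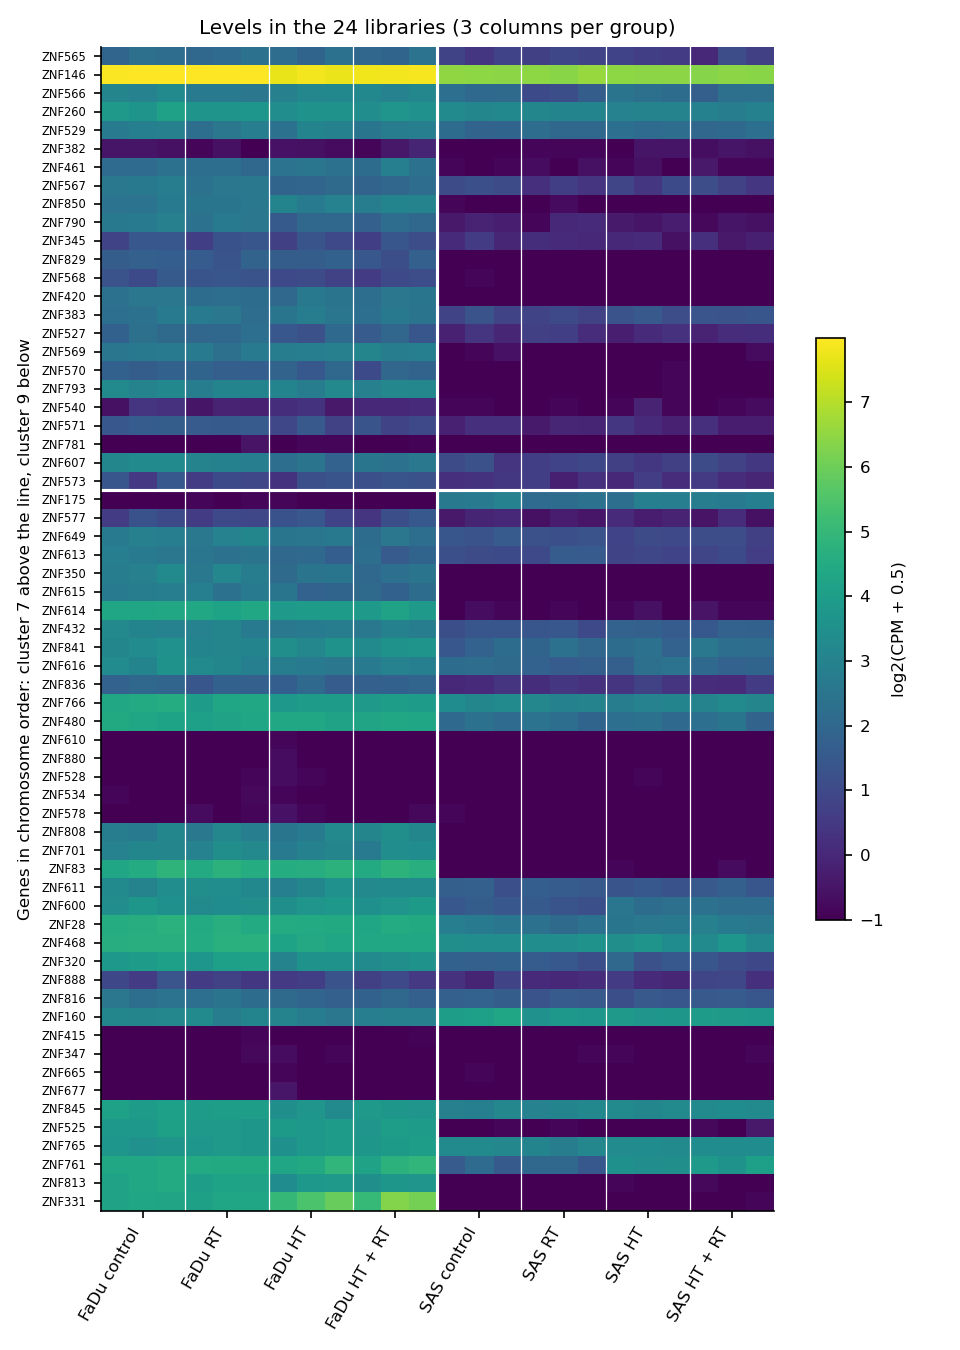
Log2 of CPM plus 0.5 for the members of clusters 7 and 9 (lines of the heat map, in chromosomal order) in the 24 libraries (columns, by group). The 12 SAS columns are at the lowest shade for stretches of neighbours that the 12 FaDu columns show as read, and the replicates of a group look alike.

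In cluster 9, 25 of 30 tested members were altered higher in FaDu controls and 2 lower, beside the same 21.2% and 16.9% of all genes, with a median of 2.03; the cluster's summed CPM was 359 ± 19.8 and 97.8 ± 2.84. It held 3 runs: 12 members from ZNF577 to ZNF480, 8 from ZNF808 to ZNF320, and ZNF761, ZNF813 and ZNF331. Of the other protein-coding genes inside it, also picked after their values were seen, PPP2R1A stood at 199 ± 9.14 CPM in FaDu and 185 ± 1.99 CPM in SAS (edgeR log2 fold change 0.14, adjusted p 0.065). SPACA6 was lower in FaDu, at 1.07 ± 0.0678 against 2.63 ± 0.247 CPM (edgeR log2 fold change -1.26, adjusted p 0.00056). These were the only 2 other protein-coding genes tested inside cluster 9, and neither is a zinc finger gene, so the clusters cannot be compared in this respect.

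Other clusters varied, beside 21.2% of all genes altered higher in FaDu controls and 16.9% lower. In cluster 4, 4 of 5 tested members were higher in FaDu (median 4.90), in cluster 6 4 of 5 (1.92), in cluster 2 4 of 9 (0.77) and in cluster 1 1 of 5 (0.58), with none lower. In cluster 8 8 of 20 were higher and 1 lower (0.85), in cluster 5 7 and 2 of 16 (0.95), in cluster 3 3 and 2 of 16 (0.37) and in cluster 12 10 and 3 of 38 (0.73). Cluster 5 also held 13 of the near-silent members. In cluster 10 none of 7 was altered in edgeR, though 4 were higher and 1 lower at an adjusted p under 0.05 alone, and in cluster 11 only 3 of 9 members were tested, 1 of them lower in FaDu.

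Members higher in SAS were few and scattered. ZNF175 (ENSG00000105497, chr19:51571298-51592508, plus strand), the first member of cluster 9, had 5.71, 5.87 and 7.48 CPM in SAS controls and no count in FaDu controls. SAS libraries of all groups read it and FaDu libraries had 3 counts in all. The controls differed at least 132-fold (edgeR adjusted p 3.8e-07).

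ZNF71 in cluster 11 had 5.0, 5.36 and 6.01 CPM in SAS controls and none in FaDu controls, at least 113-fold lower in FaDu (edgeR adjusted p 4e-07). ZNF329 in cluster 12 had 3.43, 3.82 and 3.95 CPM in SAS controls and none in FaDu controls, at least 77.6-fold lower (edgeR adjusted p 9.8e-07). ZNF85, in cluster 5 some distance from ZNF43, had 1.52, 1.48 and 1.18 CPM in SAS controls and none in FaDu controls, at least 29.2-fold lower (edgeR adjusted p 1.4e-05). Each of these was at 0 in the FaDu controls and the SAS values lay close together.

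ZNF844 in cluster 3 had 4.13, 4.50 and 6.60 CPM in SAS controls and 1 count in FaDu controls, a 316-fold lower level with a counting interval of 56.2 to 12513 (edgeR adjusted p 3.3e-07). ZNF714 was read in both lines, at 1.21, 1.27 and 1.30 CPM in FaDu controls and 20.1, 21.8 and 25 CPM in SAS controls (edgeR log2 fold change -4.11 ± 0.16 SE, adjusted p 3.5e-09). ZNF285 was at least 13.4-fold lower in FaDu controls (edgeR adjusted p 0.00011) and overlaps other genes on its strand, and ZNF132 fell by 1.63 on the log2 scale (edgeR adjusted p 0.0027).

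The counts of members that differed between the lines were close in all conditions. In RT groups 93 of 184 tested members were altered higher in FaDu and 7 lower (21.7% and 17.0% of all genes; median 1.01), and 137 and 11 passed an adjusted p under 0.05 alone (38.6% and 36.0%). In HT groups the counts were 86 and 11 of 186 (21.9% and 18.2%; median 0.86), with 119 and 22 at an adjusted p under 0.05 alone (37.2% and 36.0%). In HT + RT groups 86 and 11 of 184 were altered (22.1% and 18.3%; median 0.91), and 119 and 24 passed the adjusted p alone (38.4% and 36.8%). The 4 comparisons use different libraries, and 65 of the 182 members tested in all 4 were altered higher in FaDu in each (35.7%, against 16.8% of all genes) and 7 lower (against 13.7% of all genes). None was altered in opposite directions in 2 conditions. Below that size ZNF557 and ZNF227 did turn: ZNF557 was higher in FaDu controls (edgeR log2 fold change 0.88, adjusted p 0.00037) and lower after HT (-0.75, adjusted p 0.0038), without overlap in either. For ZNF227 the values were 0.87 (edgeR adjusted p 0.00047) and -0.77 (adjusted p 0.0017), again without overlap. The 7 lower in all 4 were ZNF844, ZNF85, ZNF714, ZNF175, ZNF71, ZNF329 and ZNF584, the last of them named after its values were seen.

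The next question was how heat changed the members within each line. In FaDu, HT against control tested 182 members; edgeR called 2 altered higher and 7 lower, beside 4.29% and 0.674% of all genes. At an adjusted p under 0.05 alone 3 were higher and 45 lower, beside 7.95% and 9.69% of all genes. The median log2 fold change was -0.15, against -0.11 for ZNF genes of other chromosomes, 0.08 for other protein-coding genes of chromosome 19 and 0.01 for all genes. Among 209 tested ZNF genes of other chromosomes, 19 were higher and 45 lower at an adjusted p under 0.05 alone. These were 9.09% and 21.5%, against 1.65% and 24.7% of the members. DESeq2 moved the all-gene median to 0.19 and the member median to -0.06, so the members lay below all genes there as well. With replicate number as a block, 11 were higher and 59 lower at an adjusted p under 0.05 (15.6% and 17.1% of all genes). Without the FaDu replicate 1 libraries these were 11 and 56 (13.8% and 14.8% of all genes). The count of 48 rested in part on single libraries: it was 14 without FaDu control replicate 3, 23 without FaDu control replicate 2, 24 without FaDu HT replicate 2 and 23 without FaDu HT replicate 3, and the 9 altered became 5 without FaDu control replicate 3. Without FaDu HT replicate 1, the library with the background counts, they were 45 and 9. Calls of single genes rested on single libraries too: of 105 heat and interaction values of named members past the threshold, 58 lost the call (an adjusted p of 0.05 or more) without 1 library, and 23 kept it in every refit. Such losses are given below with the genes.

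ZNF460 (ENSG00000197714, chr19:57280051-57293569, plus strand) overlaps an antisense transcript and rose most in FaDu, from 2.47, 3.06 and 3.98 CPM in controls to 8.48, 10.5 and 11.8 CPM after HT. All HT libraries were above all controls (edgeR log2 fold change 1.71 ± 0.21 SE, adjusted p 0.00099). RT libraries of FaDu had 2.57, 3.30 and 2.43 CPM and HT + RT libraries 7.08, 10.4 and 10.8 CPM, again without overlap (edgeR log2 fold change 1.79 ± 0.21 SE, adjusted p 0.00087). In SAS it rose from 0.816, 1.14 and 0.648 CPM to 1.24, 2.03 and 2.11 CPM after HT (edgeR log2 fold change 1.08 ± 0.34 SE, adjusted p 0.037), at lower levels but in the same direction, and the rise did not differ between the lines beyond its error (interaction 0.66 ± 0.40 SE, edgeR adjusted p 0.46). Both FaDu values kept the call in every refit, while the SAS value lost it in DESeq2 and without any 1 of 4 of the 6 libraries.

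ZNF331 was silent in SAS and rose in FaDu from 17.5, 18.9 and 18.7 CPM in controls to 31.4, 43.2 and 59.9 CPM after HT. The HT libraries spread widely but all lay above the controls (edgeR log2 fold change 1.32 ± 0.21 SE, adjusted p 0.0035). From 17.0, 19.2 and 19.3 CPM after RT it rose to 32.3, 79.6 and 69.3 CPM after HT + RT (edgeR log2 fold change 1.73 ± 0.29 SE, adjusted p 0.0042). Both values kept the call in every refit. ZNF331 and ZNF460 were the 2 members altered higher after HT in FaDu. Heat gave no reading of ZNF331 in SAS, where HT libraries had no count.

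Their promoter windows (RefSeq, GRCh38.p14, plus strand) are printed to show what motifs these heat-raised genes have. In ZNF331, chr19:53520764-53521063, which starts inside the GENCODE gene, capitals mark GAANNTTC, a pair of heat shock units. In ZNF460, chr19:57279732-57280031, capitals mark CCGGAAGT.
ZNF331: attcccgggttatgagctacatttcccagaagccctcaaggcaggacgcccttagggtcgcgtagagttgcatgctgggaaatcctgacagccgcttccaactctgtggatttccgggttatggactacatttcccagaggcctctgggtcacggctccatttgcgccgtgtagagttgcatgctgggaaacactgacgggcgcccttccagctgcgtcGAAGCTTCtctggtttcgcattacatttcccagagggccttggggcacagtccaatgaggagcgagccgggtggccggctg
ZNF460: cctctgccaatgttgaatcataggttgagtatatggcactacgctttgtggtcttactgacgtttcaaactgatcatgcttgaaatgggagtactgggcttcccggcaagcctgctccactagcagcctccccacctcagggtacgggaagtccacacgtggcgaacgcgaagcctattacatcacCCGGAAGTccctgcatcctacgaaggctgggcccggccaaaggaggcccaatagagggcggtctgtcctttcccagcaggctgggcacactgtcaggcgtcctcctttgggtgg

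GAANNTTC reads the same on both strands and was in 6.87% of all promoters and in 20 of 209 member windows (9.57%); among the 17 matched members higher after HT in SAS it was in 1. ZNF460 has none in this window. TTCNNGAA, the other spacing, was in 7.84% of all promoters and 6.70% of member windows.

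Falls after HT were more numerous in FaDu than rises, and most were below 2-fold. ZNF317, among the highest members, had 49.9, 50.5 and 53.4 CPM in FaDu controls and 30.6, 31.4 and 28.5 CPM after HT. All HT libraries were below all controls (edgeR log2 fold change -0.74 ± 0.07 SE, adjusted p 0.00029). In SAS it had 35.7, 34.3 and 37.8 CPM in controls and 33.2, 37.3 and 35.4 CPM after HT, which overlap (log2 fold change 0.01 ± 0.08 SE, edgeR adjusted p 0.97). The lines differed in this response (edgeR interaction log2 -0.72 ± 0.10 SE, adjusted p 0.00068).

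The 7 members altered lower in FaDu were ZNF607, ZNF155, ZNF230, ZNF222, ZNF225, ZNF114 and ZNF606. ZNF607 fell from 8.19, 9.27 and 9.31 CPM to 4.27, 4.96 and 3.06 CPM (edgeR log2 fold change -1.10 ± 0.18 SE, adjusted p 0.0046). ZNF606 fell from 4.25, 3.62 and 5.33 CPM to 1.46, 2.51 and 1.79 CPM (edgeR log2 fold change -1.17 ± 0.25 SE, adjusted p 0.014). In both genes all HT libraries were below all controls. ZNF114 fell from 88.6, 45.2 and 49.4 CPM to 41.9, 23.5 and 17.3 CPM (edgeR log2 fold change -1.13 ± 0.33 SE, adjusted p 0.048), also without overlap. Replicate 1 of ZNF114 was the highest of each FaDu group, so its spread within groups was wide. With any 1 library left out ZNF607 and ZNF222 kept the call, whereas ZNF606 lost it for 2 of the 6 libraries, ZNF155 and ZNF230 for 3, ZNF225 for 4 and ZNF114 for 5, and ZNF114 lost it in DESeq2 as well.

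Cluster 8 held 4 of these 7, and 9 of its 19 tested members were lower at an adjusted p under 0.05, beside 9.69% of all genes, with a median of -0.41; in cluster 6 3 of 5 were, with a median of -0.59. ZNF155 fell from 1.21, 2.34 and 2.68 CPM to 0.643, 0.418 and 0.897 CPM in FaDu (edgeR log2 fold change -1.65 ± 0.40 SE, adjusted p 0.023). In SAS it fell from 1.90, 2.22 and 1.36 CPM to 0.282, 0.887 and 0.651 CPM (edgeR log2 fold change -1.54 ± 0.39 SE, adjusted p 0.013). Both lines separated, at low counts, and the call in SAS was lost without SAS control replicate 2; between RT and HT + RT in SAS the libraries overlapped (edgeR log2 fold change -0.48 ± 0.34 SE, adjusted p 0.33), and 37.8 percent of the words of ZNF155 are shared with an antisense transcript. Its neighbour ZNF222 fell in FaDu from 2.20, 2.34 and 1.89 CPM to 0.760, 1.05 and 0.686 CPM (edgeR log2 fold change -1.33 ± 0.27 SE, adjusted p 0.011), and overlaps a read-through gene.

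The response in FaDu can be split by whether SAS read the member, a difference that was not tested. The 26 tested members under 10 counts in all SAS libraries had a median log2 fold change of -0.11 after HT in FaDu, with 5 lower and 1 higher at an adjusted p under 0.05. The 127 with at least 10 counts in all SAS libraries had a median of -0.17, with 35 lower and 2 higher, where 9.69% of all genes were lower and 7.95% higher. In HT + RT against RT the medians were -0.03 over 25 members (3 lower and 2 higher) and -0.09 over 127 (17 lower and 8 higher), where 9.9% of all genes were lower and 9.37% higher.

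HT + RT against RT asked the same of irradiated spheroids and shares no library with HT against control. In FaDu, edgeR called 3 of 180 tested members altered higher (ZNF556, ZNF331 and ZNF460) and 1 lower (ZNF155), beside 4.76% and 0.629% of all genes. With any 1 library left out ZNF331 and ZNF460 kept the call, whereas ZNF556 lost it for 2 libraries and ZNF155 for 5. At an adjusted p under 0.05 alone 12 were higher and 23 lower, beside 9.37% and 9.9% of all genes, with a median of -0.08; scaling by library size only gave 8 and 41 (7.27% and 16.7% of all genes), and 2 and 3 altered. With replicate number as a block, since libraries of the same number went together, 22 were higher and 40 lower (15.2% and 15.8% of all genes), and without the FaDu replicate 1 libraries 21 and 42 (15.7% and 15.9% of all genes). The 35 became 15 without FaDu RT replicate 2, 12 without FaDu RT replicate 3, 21 without FaDu HT + RT replicate 2 and 10 without FaDu HT + RT replicate 3, and the 4 altered became 2 without FaDu RT replicate 3. Of the 45 members lower after HT, 17 were lower here too (37.8% of the 45 and 73.9% of the 23), where all genes tested in both gave 70.7% and 69.3%. The same sign was seen in 43 of the 45, and in 99.3% of all genes lower after HT. Across the 180 members, which are not independent replicates, the 2 sets of log2 fold changes had a Pearson correlation of 0.82, against 0.90 across all 15546 genes.

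In SAS, HT against control tested 153 members; edgeR called 8 altered higher and 6 lower, beside 5.31% and 0.713% of all genes. At an adjusted p under 0.05 alone 20 were higher and 17 lower, beside 12.2% and 11.4% of all genes, and with scaling by library size only 16 were higher and 22 lower (9.61% and 18.5% of all genes), so which direction led depended on the scaling. The count of 37 was 23 without SAS control replicate 1. The median was -0.01. After irradiation, HT + RT against RT called 12 of 152 altered higher and 2 lower (5.71% and 0.893% of all genes), and 34 and 11 at an adjusted p under 0.05 alone (14.1% and 13.8%; with scaling by library size only 24 and 17, beside 11.2% and 21% of all genes). Here 45 became 28 without SAS HT + RT replicate 1. In the same comparison 49 of 203 tested ZNF genes of other chromosomes were higher and 19 lower at an adjusted p under 0.05 alone. These were 24.1% and 9.36%, against 22.4% and 7.24% of the members. Of the 20 members higher after HT, 17 were higher again (85% of the 20, 50% of the 34; 80.2% and 68.8% for all genes), and of the 17 lower, 7 were (41.2% of the 17, 63.6% of the 11; 80.1% and 66.4% for all genes).

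**Figure D4:**
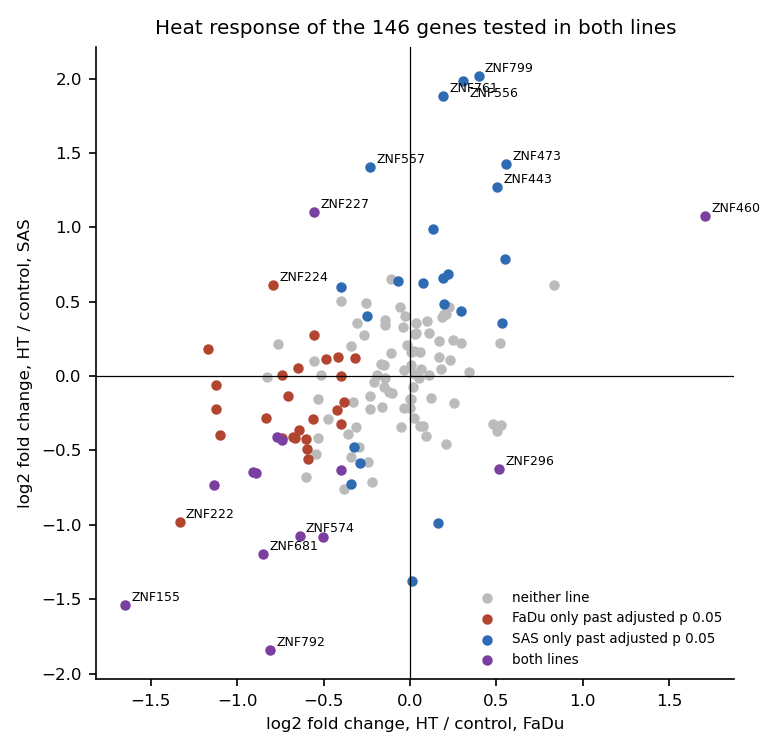
Log2 fold change after HT in FaDu (horizontal) and SAS (vertical) for the 146 members tested in both lines, coloured by whether the adjusted p was under 0.05 in FaDu, SAS, both or neither. More members lie to the left of 0 than to the right, and several at the top rose in SAS alone.

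ZNF761 (ENSG00000160336, chr19:53431993-53458261, plus strand) rose from 2.50, 3.88 and 2.42 CPM in SAS controls to 11.0, 10.2 and 10.5 CPM after HT. The groups were far apart (edgeR log2 fold change 1.88 ± 0.19 SE, adjusted p 2.3e-05). In FaDu it was high without heat, at 20.4, 20.6 and 22.1 CPM, and overlapped its HT values of 19.3, 21.8 and 29.8 CPM (log2 fold change 0.19 ± 0.16 SE, edgeR adjusted p 0.46). The lines differed in the response (edgeR interaction log2 -1.66 ± 0.25 SE, adjusted p 0.0011). Its exons overlap the pseudogene TPM3P9 on the same strand, so part of these counts may be from there.

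ZNF557 (ENSG00000130544, chr19:7069444-7087968, plus strand) overlaps no other gene and rose from 5.87, 6.44 and 4.89 CPM to 16.3, 13.2 and 15.1 CPM in SAS (edgeR log2 fold change 1.40 ± 0.15 SE, adjusted p 3.1e-05). In FaDu it had 10.7, 11.0 and 9.31 CPM in controls and 9.41, 6.32 and 10.2 CPM after HT, which overlap. The interaction was -1.60 ± 0.24 SE (log2; edgeR adjusted p 0.001), and after HT SAS stood above FaDu, where in controls it had stood below.

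ZNF473, a protein of the machinery that forms the 3' ends of histone mRNAs, rose in SAS from 14, 15.1 and 14.2 CPM to 38.9, 38.1 and 36.8 CPM (edgeR log2 fold change 1.43 ± 0.09 SE, adjusted p 3.4e-07). In FaDu it went from 7.45, 10.2 and 8.98 CPM to 13.6, 10.3 and 14.7 CPM (edgeR log2 fold change 0.56 ± 0.17 SE, adjusted p 0.055). All HT libraries were above all controls in both lines, and the rise was smaller in FaDu (edgeR interaction log2 -0.84 ± 0.19 SE, adjusted p 0.015). It also rose between RT and HT + RT in both lines, with edgeR log2 fold changes of 0.78 (adjusted p 0.0063) in FaDu and 1.78 (adjusted p 8.9e-08) in SAS.

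ZNF227 went opposite ways. In SAS it rose from 3.92, 4.96 and 4.01 CPM to 9.58, 9.49 and 8.02 CPM (edgeR log2 fold change 1.10 ± 0.16 SE, adjusted p 0.00048). In FaDu it fell from 8.13, 7.38 and 7.63 CPM to 4.50, 5.70 and 5.28 CPM (edgeR log2 fold change -0.55 ± 0.15 SE, adjusted p 0.033). Neither pair of groups overlapped, and the interaction was -1.63 ± 0.22 SE (log2; edgeR adjusted p 0.00033). The SAS value and the interaction kept the call in every refit, but the fall in FaDu lost it in DESeq2 and without any 1 of the 6 libraries. ZNF227 overlaps the antisense gene ZNF235.

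**Figure D5:**
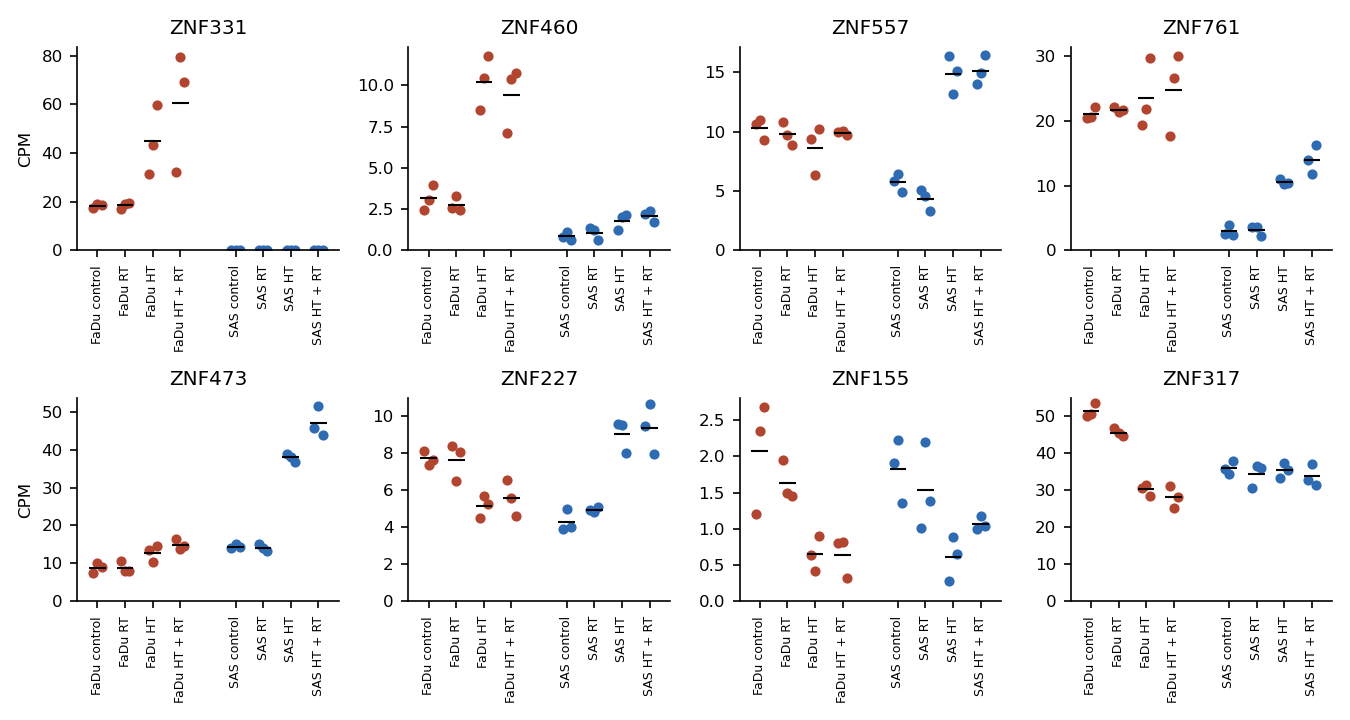
CPM in each library (points) and group means (bars) for ZNF331, ZNF460, ZNF557, ZNF761, ZNF473, ZNF227, ZNF155 and ZNF317 in the 8 groups. ZNF331 is at 0 in SAS, ZNF557 and ZNF761 rise with heat in SAS only, ZNF227 moves in opposite directions and ZNF317 falls in FaDu only.

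ZNF799 and ZNF443 lie side by side in cluster 3. ZNF799 rose in SAS from 1.03, 1.71 and 1.71 CPM to 7.89, 5.16 and 4.61 CPM (edgeR log2 fold change 2.02 ± 0.28 SE, adjusted p 0.0003). ZNF443 rose from 1.63, 1.60 and 1.36 CPM to 3.66, 3.02 and 4.17 CPM (edgeR log2 fold change 1.27 ± 0.23 SE, adjusted p 0.002). All HT libraries were above all controls for both, but 18.3 and 26.6 percent of their words are shared, most with each other, so they may not be separate rises. In cluster 3, 4 of 14 tested members were higher after HT in SAS at an adjusted p under 0.05 in edgeR (12.2% of all genes), with a median of 0.34. In HT + RT against RT 8 of 15 were (14.1% of all genes), with a median of 0.73, where RT against control in SAS had a median of -0.34 for this cluster.

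ZNF792 fell most in SAS, from 1.58, 1.25 and 1.0 CPM to 0.507, 0.261 and 0.271 CPM (edgeR log2 fold change -1.84 ± 0.40 SE, adjusted p 0.0059). ZNF574 fell from 22.1, 23.0 and 23.5 CPM to 7.94, 12 and 11.8 CPM (edgeR log2 fold change -1.08 ± 0.14 SE, adjusted p 0.00019). ZNF784 fell from 4.57, 5.36 and 6.25 CPM to 2.25, 2.66 and 2.55 CPM (edgeR log2 fold change -1.08 ± 0.20 SE, adjusted p 0.0021). None of these groups overlapped, and with any 1 library left out all 3 kept the call in SAS. All 3 genes were lower in FaDu as well, but there ZNF792 and ZNF784 lost the call without any 1 of the 6 libraries, and ZNF574 without any 1 of 4 of them.

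Of 146 members tested in both lines, HT against control moved 1 up in both (ZNF460; 0.685%, against 3.83% of all genes) and 11 down (7.53%, against 5.43%) at an adjusted p under 0.05 in edgeR: ZNF627, ZNF675, ZNF681, ZNF792, ZNF574, ZNF526, ZNF155, ZNF114, ZNF579, ZNF784 and ZNF304. ZNF296 and ZNF227 passed in opposite directions (1.37%, against 0.521%). In HT + RT against RT, 9 of 146 rose in both lines (6.16%, against 4.32%; ZNF556, ZNF443, ZNF91, ZNF566, ZNF112, ZNF473, ZNF264, ZNF460 and ZNF550) and 3 fell in both (2.05%, against 5.93%). None of the 146 passed in opposite directions in HT + RT against RT, where 0.633% of all genes did. With any 1 library left out, only ZNF526 of the 11 and only ZNF473 of the 9 kept the call in both lines. Some of these genes are named after a look at their values, outside the naming rule.

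The test of a difference in the HT response between the lines covered 190 members. It could not call members without counts in 1 line. Among these were ZNF331 (SE 3903) and ZNF615 (SE 1355), which had no count in SAS control and HT libraries. In edgeR 3 members were altered toward a higher response in FaDu and 5 toward a higher response in SAS, beside 1.25% and 1.49% of all genes. At an adjusted p under 0.05 alone the counts were 3 and 11 (1.58% and 5.79%), beside 2.3% and 3.25% of all genes. For 211 ZNF genes of other chromosomes they were 5 and 17 (2.37% and 8.06%). The 8 altered members became 5 without FaDu control replicate 3. The 14 members became 8 without FaDu control replicate 3, 9 without FaDu control replicate 2 and 9 without SAS control replicate 1. ZNF296, which rose in FaDu from 5.67, 5.25 and 6.38 CPM to 8.77, 8.10 and 7.49 CPM, fell in SAS from 5.33, 4.05 and 4.83 CPM to 2.70, 2.71 and 3.58 CPM (edgeR interaction log2 1.17 ± 0.23 SE, adjusted p 0.0073). ZNF256 and ZNF17 did not pass in FaDu (edgeR log2 fold changes 0.01, adjusted p 0.97, and 0.16, adjusted p 0.54) and were lower after HT in SAS. The SAS call of ZNF256 was lost in DESeq2 and without SAS control replicate 1 or SAS HT replicate 3. The SAS call of ZNF17 was kept with any 1 library left out. The interactions of ZNF296 and ZNF17 kept the call with any 1 library left out, while that of ZNF256 lost it for 9 of the 12 libraries, and the values of ZNF296 within the lines lost it for all 6 in FaDu and 4 of 6 in SAS.

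Radiation alone altered no member in the edgeR fits used for the other comparisons, which had no replicate block. A few members passed under other settings. In edgeR 0 of 182 tested members in FaDu and 0 of 151 in SAS passed an adjusted p under 0.05, beside 0.0322% and 0.0749% of all genes, and 0.00643% and 0.0272% of all genes were altered. At an unadjusted p under 0.05 there were 22 in FaDu and 25 in SAS, beside 5.09% and 5.68% of all genes. DESeq2 was fitted to every gene with a count, so its shares have another base than those of edgeR. It gave 14 of 216 and 22 of 193 members unadjusted, beside 1.65% of 32294 and 2.18% of 28775 genes. Adjusted, it gave 1 and 0 members, beside 0.177% and 0.156% of these genes. With replicate number as a block, 10 in FaDu and 6 in SAS were lower at an adjusted p under 0.05 in edgeR, beside 0.675% and 0.702% of all genes, and none was higher, beside 1.33% and 1.26%. In SAS 1 was altered with the block (0.17% of all genes), 1 without a low-count filter (0.104%) and 1 with all 8 groups in 1 fit (0.044%); without the FaDu replicate 1 libraries 4 were lower in FaDu at an adjusted p under 0.05 (0.442% of all genes). The median log2 fold changes of the members were -0.10 in FaDu and -0.14 in SAS. ZNF genes of other chromosomes had medians of -0.06 and -0.11. All 3 RT libraries lay below all 3 controls for 41 of 210 of those genes in FaDu and 39 of 202 in SAS. They lay above all 3 controls for 6 of those genes in each line. All 3 RT libraries lay below all 3 controls for 37 members in FaDu and 34 in SAS, beside 5.31% and 5.42% of all genes, and above them for 0 and 4 members, beside 5.25% and 5.44%. ZNF91 was among those below in both lines: FaDu had 32.3, 34.1 and 39.3 CPM in controls and 28.3, 25.9 and 25.2 CPM after RT (edgeR log2 fold change -0.41 ± 0.09 SE, adjusted p 0.35).

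Several members are known for a target or a role, and were listed whatever their values. ZNF91, which represses SVA elements, was higher in FaDu, with 32.3, 34.1 and 39.3 CPM against 6.91, 8.67 and 9.08 CPM in SAS controls (edgeR log2 fold change 2.13 ± 0.13 SE, adjusted p 7.1e-08). ZNF93, which represses a set of LINE-1 elements, had 5.56, 6.72 and 5.54 CPM in FaDu controls and no count in any SAS library, at least 104-fold (edgeR adjusted p 4e-07).

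ZNF274, which binds the 3' ends of ZNF genes, was read in both lines at 16.5, 15.4 and 15.3 CPM in FaDu and 6.96, 8.78 and 5.95 CPM in SAS controls (edgeR log2 fold change 1.15 ± 0.15 SE, adjusted p 3.5e-05). It fell after HT in FaDu to 11.0, 9.83 and 12.3 CPM (edgeR log2 fold change -0.49 ± 0.12 SE, adjusted p 0.023), a call lost without any 1 of 4 of the 6 libraries. ZNF675, an inhibitor of TRAF6 signalling, was at 19.9 ± 0.373 CPM in FaDu and 10.3 ± 1.01 CPM in SAS controls and fell after HT in both lines (edgeR log2 fold changes -0.40, adjusted p 0.03, and -0.63, adjusted p 0.0061). ZNF304 fell in both as well (edgeR log2 fold changes -0.74, adjusted p 0.007, and -0.43, adjusted p 0.047). With 1 library left out, ZNF675 lost the call in FaDu for 5 of the 6 libraries and ZNF304 in SAS for 5.

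ZNF224, a cofactor of WT1, was at 7.19, 6.37 and 8.05 CPM in FaDu and 1.63, 1.94 and 2.71 CPM in SAS controls; HT lowered it in FaDu to 3.74, 3.92 and 4.59 CPM (edgeR log2 fold change -0.79 ± 0.16 SE, adjusted p 0.012), a call lost without FaDu control replicate 3. It shares 39.1 percent of its words with an antisense transcript. ZNF558 differed little, with 10.4 ± 0.400 CPM in FaDu and 6.97 ± 1.39 CPM in SAS controls (edgeR log2 fold change 0.61 ± 0.16 SE, adjusted p 0.0052). ZNF382, ZNF471 and ZNF534 stayed under 10 counts in every control library: over the 3 libraries they had 12, 0 and 1 counts in FaDu and none in SAS.

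By the correlation of log2 group means over the 8 groups, a description dominated by the line difference, ZNF91 was most like ZNF444 (Pearson 0.991) and ZNF175 most like ZNF85 (0.993).

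The co-repressors with which KRAB proteins work were read in both lines. All 30 listed genes passed the filter, and their summed level was 3516 to 3942 CPM in FaDu libraries and 4148 to 4571 CPM in SAS libraries, with CBX3 the most abundant. In controls 10 were higher and 14 lower in FaDu at an adjusted p under 0.05 in edgeR, beside 38.6% and 36.4% of all genes, with a median log2 fold change of -0.08, and TRIM28 and SUV39H2 were altered.

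TRIM28 had 159, 136 and 139 CPM in FaDu controls and 381, 350 and 376 CPM in SAS controls. It was lower in every FaDu library (edgeR log2 fold change -1.32 ± 0.08 SE, adjusted p 5.8e-08), opposite to most of the zinc finger genes. SUV39H2 stood at 20.04, 18.8 and 21.3 CPM in FaDu controls and 57.9, 56.6 and 51.4 CPM in SAS controls (edgeR log2 fold change -1.43 ± 0.08 SE, adjusted p 5.5e-08). Whether these levels bear on the silent members was not tested.

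After HT 6 of the 30 were lower in FaDu and 8 in SAS at an adjusted p under 0.05 in edgeR, beside 9.69% and 11.4% of all genes, and 0 and 1 were higher, beside 7.95% and 12.2%. SETDB1 fell in FaDu from 48.3, 54.0 and 57.9 CPM to 35.8, 36.0 and 34.6 CPM (edgeR log2 fold change -0.57 ± 0.08 SE, adjusted p 0.002). In SAS it fell from 48.7, 50.8 and 47.2 CPM to 35.6, 33.2 and 33.2 CPM (edgeR log2 fold change -0.49 ± 0.08 SE, adjusted p 0.00059). SUV39H1 fell in FaDu from 17.1, 16.4 and 14.2 CPM to 11.2, 7.73 and 7.33 CPM (edgeR log2 fold change -0.85 ± 0.17 SE, adjusted p 0.0097). In these comparisons every heated library was below every control. TRIM28 did not move with heat, at 176, 134 and 130 CPM after HT in FaDu and 365, 407 and 396 CPM in SAS, and RT altered none of the 30 in either line.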

How the data were processed

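RNA of 24 libraries (2 lines, 4 conditions, 3 replicates) was read as the deposited raw counts per Ensembl gene. The submitters' notes name bcl2fastq and DESeq2; aligner, counting program and strand are not given in the sources used here, and the labels list the build mm9 although the identifiers are human Ensembl genes. Depth was 15203484 to 29452514 counts per library. Positions came from GENCODE v29 (GRCh38) and promoters from RefSeq GRCh38.p14.

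Each comparison was fitted alone in edgeR 4.0.16 (R 4.3.3; quasi-likelihood test, TMM, filterByExpr at a minimum count of 10, Benjamini-Hochberg over all genes tested); altered means at least 2-fold in size (log2 beyond 1 or -1) with an adjusted p under 0.05. FaDu was compared with SAS in each condition, HT with control, HT + RT with RT and RT with control in each line, and the HT response between lines. Alternatives were DESeq2 1.42.0, other scalings, filters and fits, a 1.5-fold test, replicate blocks, libraries left out, and members that overlap no gene. The 3 libraries of a group came from separate experiments, and no source says what a replicate number marks; same-numbered libraries correlated at over 0.1 in every pair for HT (0.28 to 0.53), HT + RT (0.21 to 0.47) and RT (0.22 to 0.59) in FaDu, and for HT + RT (0.20 to 0.34) and RT (0.22 to 0.33) in SAS, so numbers were read as pairs there.

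The members and lists were chosen with earlier results of these data known. Named genes were up to 8 highest and 8 lowest between control lines, runs of at least 3 neighbours, up to 6 highest and 6 lowest after HT per line, those altered in RT or the interaction, 15 textbook members, the top 5 per kb, and partners by correlation; others are named as chosen after their values were seen. A planned split by a KRAB-like protein motif was left out, since no protein sequences were among the sources.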

Additional observations from a re-analysis of the deposited data

Results flagged for a closer look

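The difference between the lines in the response to HT was tested for 190 of the 240 members. Of these, 8 passed the edgeR test of that difference with an absolute log2 value over 1, which is why they are listed here. A negative value means that SAS rose more, or fell less, than FaDu.

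For ZNF557 the difference was -1.60 ± 0.24 SE (edgeR adjusted p 0.001), for ZNF799 -1.59 ± 0.37 SE (adjusted p 0.019) and for ZNF224 -1.38 ± 0.37 SE (adjusted p 0.044). ZNF227 had -1.63 ± 0.22 SE (edgeR adjusted p 0.00033) and ZNF761 -1.66 ± 0.25 SE (adjusted p 0.0011). Positive values were 1.17 ± 0.23 SE for ZNF296 (edgeR adjusted p 0.0073), 1.18 ± 0.26 SE for ZNF17 (adjusted p 0.013) and 1.42 ± 0.37 SE for ZNF256 (adjusted p 0.035). All 3 HT libraries lay on opposite sides of their controls in the 2 lines for ZNF227, ZNF296 and ZNF17. With 1 library left out, ZNF224 lost the call for 8 of the 12 libraries, ZNF256 for 9 and ZNF799 for 1. The exons of ZNF799, ZNF224, ZNF227, ZNF296, ZNF761 and ZNF17 overlap another gene, so reads of that gene may enter these values.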

How the results depend on the processing

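No value of a named gene past the threshold changed sign, but the balance of higher and lower members did turn for HT in SAS: 20 and 17 passed an adjusted p under 0.05, 16 and 22 with scaling by library size only, and 21 and 23 with the replicate block. The balance of all genes turned too, from 12.2% higher and 11.4% lower to 9.61% and 18.5% with scaling by library size only. With the block the shares of all genes were 14.6% and 14.8%. In HT + RT against RT in FaDu 3 and 1 altered became 2 and 3 with scaling by library size only. The cause of these and the moves below was not tested except where fewer members could be called. In pairs of numbers below, the first is the count altered and the second the count at an adjusted p under 0.05 alone. Counts between the lines (control 97 and 157, RT 100 and 148, HT 97 and 141, HT + RT 97 and 143) moved under 2 alternatives that leave members out: with at least 10 counts in every library the altered were 52, 58, 55 and 51, and among members that overlap no gene the counts were 47 and 74, 46 and 71, 48 and 63, and 48 and 68.

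Members that overlap no gene gave 2 and 26 for HT in FaDu (all tested 9 and 48), 7 and 16 for HT in SAS (14 and 37), 2 and 13 for HT + RT against RT in FaDu (4 and 35), 7 and 19 in SAS (14 and 45), and 2 and 5 for the interaction (8 and 14). Testing against 1.5-fold gave 3, 9, 2, 7 and 3 in the same order. DESeq2 gave 24 at an adjusted p under 0.05 for HT in SAS, 28 for HT + RT against RT in SAS and 1 for RT in FaDu. For RT, without a low-count filter 4 passed in FaDu and 4 in SAS, 1 of these altered, and with all 8 groups in 1 fit 1 passed and 1 was altered in SAS.

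With replicate number as a block 62 passed in HT + RT against RT in FaDu. For RT 10 passed in FaDu and 6 in SAS, 1 of them altered. No other total of higher and lower members moved by over 1.5 times with the block. Counts by direction moved more: members higher after HT in FaDu at an adjusted p under 0.05 went from 3 to 11 with the block. Members lower in HT + RT against RT in SAS went from 11 to 18 with the block. Where the numbers did not pair the libraries the block gave 96, 101, 95 and 98 altered between the lines, 14 for HT in SAS (same-number correlations 0.04 to 0.23) and 8 for the interaction. Leaving out the FaDu replicate 1 libraries, an alternative chosen after seeing the data, gave 63 passing for HT + RT against RT in FaDu and 4 for RT in FaDu.

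Leaving out 1 library at a time gave ranges of 5 to 9 altered and 14 to 45 passing for HT in FaDu, 23 to 29 passing for HT in SAS, 2 to 6 and 10 to 39 for HT + RT against RT in FaDu, 28 to 34 passing in SAS, and 5 to 11 and 8 to 16 for the interaction. Scaled by library size only, the summed CPM was 2317 in FaDu control, 2175 in RT and 1953 in HT, and 1094, 1020, 1058 and 1068 in SAS control, RT, HT and HT + RT.

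Of 439 values of named genes past the threshold, refitted 6446 times, 5941 refits were the same, 505 weaker and 0 reversed; 82 of 105 heat values and 44 of 334 line values were weaker in at least 1 refit. Depth limits low members: a group without counts bounds a level only at 0.0480 CPM in FaDu controls and 0.0567 CPM in SAS controls.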
